A study of Mus musculus with 6 samples.

Results

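A set of 8 genes known as targets or feedback inhibitors of Wnt/β-catenin signaling were followed in RNA of oligodendrocyte precursor cells (OPCs). These are Wif1, Notum, Apcdd1, Nkd1, Nkd2, Dact1, Dact3 and Sp5. They were chosen by symbol from the deposited table, with their genotype difference already known, so that difference is given as a description, with no p, and a call among them supports nothing. All 8 were found among the 18211 genes of the table and all 8 passed the filter on low levels, which left 13792 genes. Wif1 passed through the DISC1-Δ3 group alone, since it reached the minimum of 0.5 RPKM (reads scaled to transcript length and library total) in 3 of 6 libraries. The other members reached it in all 6. The wildtype group (3 libraries) came from mice without the CreERT transgene, and the DISC1-Δ3 group (3 libraries) from NG2-CreERTM: DISC1 exon3 fl/+ mice, in which tamoxifen removes exon 3 from a single Disc1 allele in cells that express Cre. Both groups were on the C57BL/6 strain, received tamoxifen by gavage on each of the 4 days from P4 to P7, and were killed at P7, when OPCs were panned from the cerebral hemispheres with an antibody to PDGFRα. The NG2 promoter that drives Cre is also used by pericytes. The paper reports that DISC1-Δ3 mRNA rose in isolated OPCs and not in the other brain cell types it measured, pericytes among them. The presence of Cre and the loss of exon 3 cannot be told apart in this design. The labels do not say whether each library came from a separate mouse, so a p-value measures only the spread between these libraries, which may be technical.

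Canonical Wnt signaling starts when a lipidated Wnt ligand binds a Frizzled receptor and its LRP coreceptor at the cell surface. Dishevelled then stops the destruction complex, and β-catenin accumulates and works with TCF/LEF factors at target genes. Several of those targets encode brakes that act at each level of the pathway, and in OPCs the balance of signal and brake is known to influence when the cells mature.

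The region just before the transcription start was available for 6 of the 8 members in RefSeq (GRCm38.p6, the mm10 build), and 250 bases per gene were searched on both strands. A TCF/LEF site was searched for as CTTTGAA and as its 3 variants in the last letters, of which the first is CTTTGAT, the next has the letters CTTTGTA, and the last has the letters CTTTGTT. The GC box, the motif that Sp factors bind, was searched for as GGGCGG. No TCF/LEF match overlapped a GC box in the members' windows, although GC boxes ran into one another. A TCF/LEF match stood in the window of Sp5 alone among the 6, with 2 matches whose first letters lay 222 and 104 bases before the start. In comparison, 14.8% of all 32851 windows held at least 1 such match and 1.43% held at least 2. GC boxes were matched 5 times in Dact1, 4 times in Dact3 and 2 times in Wif1. Of all windows, 32.7% held at least 1 GC box, 16.7% at least 2, 4.09% at least 4 and 1.93% at least 5. Dact1 also had the richest window, with a GC content of 80.4% beside a median of 52.4% over all windows, whereas Sp5 stood at 46%. The windows of Nkd1 and Nkd2 held neither motif, which says only that these letters are not there. The Nkd1 window (chr8:88527383-88527632) precedes the RefSeq start but lies wholly inside the gene as GENCODE places it. The bases before the GENCODE start of Nkd1 were thus not searched. The windows of Sp5 (chr2:70474673-70474922, plus strand), Wif1 (chr10:121033754-121033959, plus strand), Dact1 (chr12:71309634-71309883, plus strand) and Dact3 (chr7:16875067-16875316, plus strand) are shown because they hold every match found, with the matches in capitals. The window of Wif1 is shown without its last 44 bases, which GENCODE places inside the gene.
Sp5: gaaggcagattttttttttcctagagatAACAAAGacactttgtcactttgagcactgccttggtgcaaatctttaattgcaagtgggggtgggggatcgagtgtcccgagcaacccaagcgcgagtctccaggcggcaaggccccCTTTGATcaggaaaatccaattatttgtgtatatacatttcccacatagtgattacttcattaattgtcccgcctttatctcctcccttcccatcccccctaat
Wif1: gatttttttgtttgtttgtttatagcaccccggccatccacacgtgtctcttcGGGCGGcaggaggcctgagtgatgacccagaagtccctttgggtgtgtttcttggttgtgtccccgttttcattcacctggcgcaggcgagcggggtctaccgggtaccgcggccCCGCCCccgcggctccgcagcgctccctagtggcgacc
Dact1: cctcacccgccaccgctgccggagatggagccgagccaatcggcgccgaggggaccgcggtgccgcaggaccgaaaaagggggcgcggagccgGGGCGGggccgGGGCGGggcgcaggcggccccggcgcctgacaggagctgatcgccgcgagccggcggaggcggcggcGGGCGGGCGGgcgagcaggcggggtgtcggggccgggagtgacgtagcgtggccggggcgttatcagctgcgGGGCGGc
Dact3: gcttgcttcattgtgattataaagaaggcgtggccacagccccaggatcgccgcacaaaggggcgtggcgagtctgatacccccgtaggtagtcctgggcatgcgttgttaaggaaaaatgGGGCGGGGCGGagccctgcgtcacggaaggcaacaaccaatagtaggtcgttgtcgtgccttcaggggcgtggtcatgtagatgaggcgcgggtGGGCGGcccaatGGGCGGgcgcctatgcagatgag

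Libraries held 13716631 to 16417232 reads after rounding, so that 1 read was worth 0.0609 to 0.0729 CPM (a count scaled to the library total), and intervals on reads cover counting error only. Differences between replicates were larger in the pairs with DISC1-Δ3 replicate 3 (chi-square per degree of freedom of 4.82 and 5.07) than in the other 4 pairs within groups (1.79 to 2.85). Disc1 itself had a wildtype level of 3.55 ± 0.238 RPKM and a DISC1-Δ3 level of 2.72 ± 0.240 RPKM (SD, n = 3 each). It was called lower (log2 fold change -0.45, adjusted p = 0.000528 by edgeR), which checks the gene and not exon 3. The labelled cell type was present, as all 8 OPC markers were detected with a summed level of 485 to 504 RPKM in wildtype and 607 to 632 RPKM in DISC1-Δ3 libraries, and 6 of 8 rose and 1 fell by edgeR. Other cells were present too. The 6 microglial markers summed to 4888 to 4939 RPKM in wildtype and to 3792 to 3866 RPKM in DISC1-Δ3 libraries, several-fold above the OPC markers, and all 6 fell. The 5 pericyte markers went from 121 to 127 RPKM up to 167 to 172 RPKM, with all 5 higher, and the 6 endothelial markers from 143 to 151 RPKM up to 177 to 188 RPKM, with 3 higher. The 6 neuronal markers rose in 5 (322 to 324 against 378 to 400 RPKM), the 6 astrocyte markers fell in 5 and rose in 1 (1265 to 1294 against 1182 to 1202 RPKM), and the 6 markers of mature oligodendrocytes fell in 4 (2149 to 2173 against 1984 to 2017 RPKM). None of the 5 meningeal markers passed the threshold (15.02 to 18 against 18.2 to 20.5 RPKM), and 2 of 5 for choroid plexus and ependyma rose (18.9 to 19.7 against 24.9 to 25.9 RPKM). No listed marker was at 0 in all libraries. The part of these shifts in the levels described below was not tested, and in bulk RNA fewer cells of a type and less RNA per cell cannot be told apart.

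All 8 members were higher in every DISC1-Δ3 library than in any wildtype library. In the edgeR fit over all genes (quasi-likelihood test, Benjamini-Hochberg adjusted p under 0.05) all 8 were called higher, which their choice on this contrast, and for Wif1 also the filter, had largely fixed. Among all tested genes 20.4% were called higher and 19.5% lower (39.9% in either direction), and 35.9% lay higher without overlap between the groups (52% in either direction). Since the members were chosen on this contrast, nothing is read from their count. They were far from uniform. Log2 fold changes ran from 0.22 for Dact3 to 8.60 for Wif1 with a median of 2.62, beside a median of 0.01 over all tested genes. Of the members, 6 were called and reached a log2 fold change of 1 or more, as did 2.76% of tested genes in this direction, and Nkd2 and Dact3 were below that fold. All 8 were also called without DISC1-Δ3 replicate 3, whereas Nkd2 and Dact3 were not called without wildtype replicate 2 or 3, nor Dact3 without DISC1-Δ3 replicate 2, and DESeq2 did not call Nkd2. The plot of levels by library shows the separation gene by gene.

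**Figure D1:**
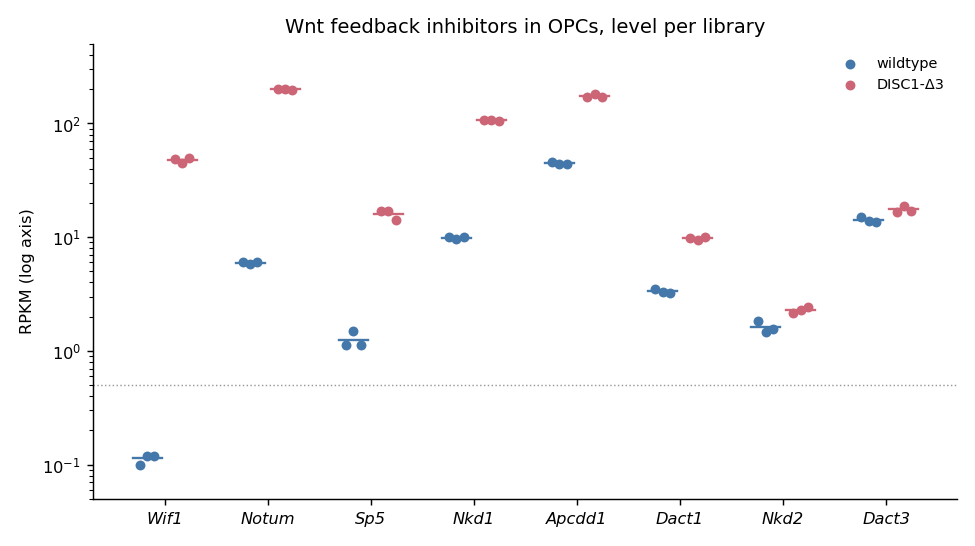
Level of the 8 members in RPKM on a log axis, with 1 point per library (wildtype in blue, DISC1-Δ3 in red) and a bar at the mean of each group of 3. The groups do not overlap for any member, Wif1 in wildtype lies below the dotted line at 0.5 RPKM, and Nkd2 and Dact3 show the smallest gaps.

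The secreted inhibitors had the widest differences. Wif1 (gene ID 24117, chr10:121033960-121100650, plus strand) encodes Wnt inhibitory factor 1, which binds Wnt ligands outside the cell. Its level was 0.10, 0.12 and 0.12 RPKM in wildtype replicates 1 to 3, from 3, 4 and 4 reads. In DISC1-Δ3 replicates 1 to 3 it was 48.8, 44.9 and 49.4 RPKM, from 1460, 1523 and 1668 reads. Wif1 was thus close to undetected in each wildtype library and well expressed in each DISC1-Δ3 library, with no overlap. Counted from 11 reads against 4651 and scaled by effective library size, the level was 399-fold higher, with an exact binomial 95% interval of 223 to 800. The fitted log2 fold change was 8.60 (SE 0.13). This SE is the log2 fold change divided by the square root of the test's F statistic. It is tighter than the binomial interval, which covers counting error alone, so it understates the uncertainty for Wif1. By mean RPKM, Wif1 moved from rank 15226 to rank 1876 of the genes in the table.

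Notum (gene ID 77583, chr11:120653788-120661175, minus strand) encodes a secreted carboxylesterase that strips the lipid from Wnt ligands and so inactivates them. Unlike Wif1 it was clearly expressed in wildtype, with 6.08, 5.78 and 6.05 RPKM in replicates 1 to 3. DISC1-Δ3 replicates 1 to 3 had 202, 201 and 198 RPKM, all well above wildtype. The log2 fold change was 5.02 (SE 0.059), and the mean level rose from rank 8128 to rank 380. The spread within DISC1-Δ3 was small, with a coefficient of variation of 1.16% for Notum and 5.09% for Wif1.

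Apcdd1 (gene ID 494504) encodes a membrane glycoprotein that binds Wnt and LRP proteins at the cell surface, and outside OPCs it is known from brain endothelium. Wildtype replicates 1 to 3 had 45.6, 44.2 and 44.1 RPKM, and DISC1-Δ3 replicates 1 to 3 had 171, 180 and 172 RPKM. It was therefore the member with the highest level in wildtype and still did not overlap between the groups. The log2 fold change was 1.89 (SE 0.045).

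Naked cuticle proteins bind Dishevelled inside the cell, and the pair of paralogs behaved differently. Nkd1 (gene ID 93960, chr8:88521354-88594884, plus strand) had 10.03, 9.72 and 9.97 RPKM in wildtype replicates 1 to 3 and 107, 108 and 106 RPKM in DISC1-Δ3 replicates 1 to 3. This was a log2 fold change of 3.35 (SE 0.048) with very little spread in either group. Nkd2 (gene ID 72293, chr13:73818534-73847631, minus strand) had 1.85, 1.48 and 1.56 RPKM in wildtype and 2.15, 2.30 and 2.42 RPKM in DISC1-Δ3 replicates 1 to 3. Its log2 fold change was 0.47 (SE 0.14), and wildtype replicate 1 lay close to the DISC1-Δ3 range. The ratio of Nkd1 to Nkd2 went from 5.42 to 6.57 in wildtype libraries up to 43.6 to 49.9 in DISC1-Δ3 libraries.

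Dact proteins also bind Dishevelled and modulate both canonical and noncanonical signaling. Dact1 (gene ID 59036, chr12:71309884-71320107, plus strand) had 3.49, 3.28 and 3.23 RPKM in wildtype replicates 1 to 3 and 9.87, 9.49 and 10.1 RPKM in DISC1-Δ3 replicates 1 to 3. The groups were well apart, with a log2 fold change of 1.48 (SE 0.083). Dact3 (gene ID 629378, chr7:16875317-16887462, plus strand) had 15.09, 13.96 and 13.69 RPKM in wildtype against 16.78, 18.99 and 16.95 RPKM in DISC1-Δ3 replicates 1 to 3, the smallest difference of the set with a log2 fold change of 0.22 (SE 0.072). Here the lowest DISC1-Δ3 library was separated from the highest wildtype library by less than the range within DISC1-Δ3. The ratio of Dact3 to Dact1 fell from 4.24 to 4.32 in wildtype to 1.68 to 2.00 in DISC1-Δ3 libraries.

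Sp5 (gene ID 64406, chr2:70474923-70477729, plus strand), whose promoter window held both TCF/LEF matches, encodes a zinc finger factor that is induced by β-catenin and represses other targets. It had 1.12, 1.49 and 1.13 RPKM in wildtype replicates 1 to 3 and 17.1, 17.1 and 14.2 RPKM in DISC1-Δ3 replicates 1 to 3. DISC1-Δ3 replicate 3, the library that differed most from its group, was the lowest of the 3, yet every DISC1-Δ3 value was far above wildtype. The log2 fold change was 3.60 (SE 0.14). The coefficient of variation was the widest among members in wildtype (16.9%) and in DISC1-Δ3 (10.3%).

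**Figure D2:**
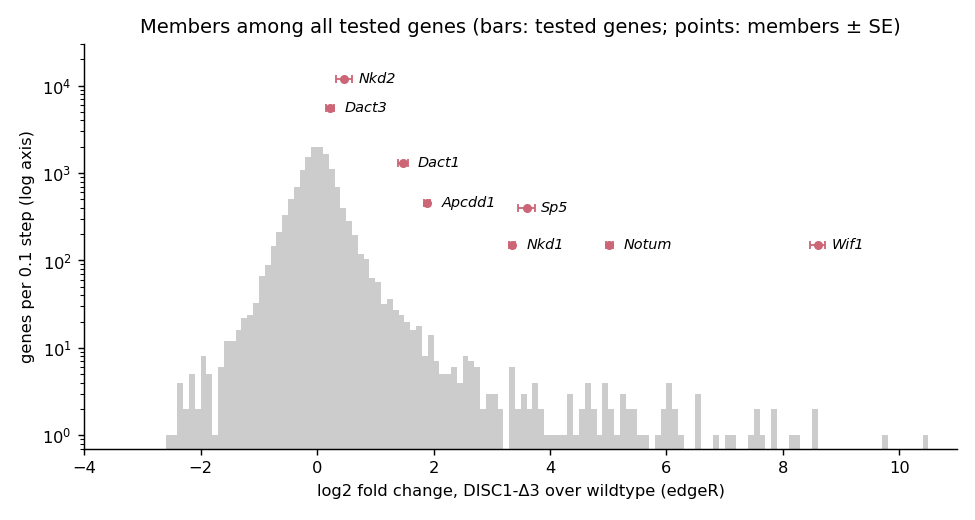
Log2 fold change (DISC1-Δ3 over wildtype, edgeR) of the 13792 tested genes as a histogram with a log count axis, with the members as red points with their SE, set at heights chosen for legibility. Dact3 at 0.22 and Nkd2 at 0.47 lie over the main body of genes, and Wif1 at 8.60 lies in the far right tail.

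The order of the members by level changed with genotype. In wildtype it ran Apcdd1, Dact3, Nkd1, Notum, Dact1, Nkd2, Sp5 and Wif1 from the highest mean RPKM to the lowest, and the ranges of Nkd2 (1.48 to 1.85 RPKM) and Sp5 (1.12 to 1.49 RPKM) overlapped. In DISC1-Δ3 it ran Notum, Apcdd1, Nkd1, Wif1, Dact3, Sp5, Dact1 and Nkd2, with overlapping ranges for Dact3 (16.8 to 19.0 RPKM) and Sp5 (14.2 to 17.1 RPKM) only. The 8 members together had 79.9 to 83.3 RPKM in wildtype and 569 to 582 RPKM in DISC1-Δ3 libraries, or 226 to 236 against 1506 to 1542 CPM. Apcdd1 made up 54.7% to 55.2% of the summed RPKM in wildtype and 29.7% to 31.0% in DISC1-Δ3 libraries. Notum went from 7.22% to 7.58% of the sum to 34.6% to 35.2%, and so passed Apcdd1.

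Because OPC markers rose as well, member levels were also set against them, an alternative chosen after the marker sums were seen. Per 1000 RPKM of summed OPC markers, the wildtype level of Dact3 was 28.8 ± 0.986 RPKM and its DISC1-Δ3 level 28.3 ± 1.55 RPKM (SD, n = 3 each), and the groups overlapped. Nkd2 had 3.30 ± 0.344 against 3.69 ± 0.267 RPKM (SD, n = 3 each) and overlapped too. On this scale neither gene separated the genotypes, and the difference of Dact3 turned to -0.03 on the log2 scale. The scale rests most on Olig1, the largest marker, with means of 252 RPKM in wildtype and 329 RPKM in DISC1-Δ3. Ptprz1, the next largest, fell from 102 to 84.9 RPKM. These 2 markers were named after their values were seen. The other 6 members did not overlap. Their log2 ratios were 8.39 for Wif1, 4.74 for Notum, 3.36 for Sp5, 3.10 for Nkd1, 1.64 for Apcdd1 and 1.23 for Dact1.

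RPKM also depends on the transcript length that the authors divided by. The length implied by the reads, the RPKM and the library total was nearly constant over libraries for Nkd1, Apcdd1, Sp5, Dact1 and Dact3. For Nkd2 it was 3231 to 3293 bases in wildtype and 3341 to 3465 bases in DISC1-Δ3 libraries, without overlap, where GENCODE lists full protein-coding transcripts of 4016 and 2801 bases. The ranges of Notum overlapped, with 1889 to 1978 bases in wildtype and 1952 to 1987 bases in DISC1-Δ3 libraries, and for Wif1 in wildtype the 2-decimal rounding of RPKM was too coarse to tell. The edgeR log2 fold changes are from reads and do not use these lengths, whereas the log2 ratios relative to OPC markers are from RPKM and do.

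The remaining Wnt pathway genes were taken as lists. The lists were written with results of these data known, so their counts are a description. They are set beside the 39.9% of all tested genes that were called, 20.4% higher and 19.5% lower. In the lists, an adjusted p is printed only for genes that were named because they were called. That choice fixed it under 0.05, so it supports nothing by itself. Among direct and commonly used Wnt target genes, 12 of 19 tested rose and 1 fell, with a median log2 fold change of 0.54. Among the risers, Cdx1, Fosl1 and Rnf43 passed the filter through the DISC1-Δ3 libraries. Of their wildtype libraries only replicate 2 reached 0.5 RPKM, for Rnf43 (0.54 RPKM). The filter thus favoured a rise in these genes, which are given without a p, and 9 of the other 16 rose. Axin2, a scaffold of the destruction complex, rose from 4.83 ± 0.246 to 25.5 ± 2.00 RPKM (SD, n = 3, log2 fold change 2.33, edgeR quasi-likelihood test with Benjamini-Hochberg adjustment, adjusted p = 4.10e-14). Rnf43, a ubiquitin ligase that removes Frizzled receptors, went from 0.45 ± 0.101 to 6.68 ± 0.535 RPKM (SD, n = 3, log2 fold change 3.77). Lef1, a TCF/LEF factor, rose from 1.62 ± 0.480 to 9.28 ± 0.552 RPKM (SD, n = 3, log2 fold change 2.52, adjusted p = 4.90e-11 by edgeR). Cdx1, a homeobox gene of the intestine, had no read in wildtype and 28, 32 and 29 reads in DISC1-Δ3 replicates 1 to 3, at least 9.29-fold higher than a floor of 3 reads per library. Members of the list that are also general growth genes, such as Myc and Ccnd1, were not called (log2 fold change -0.12 and 0.03), and Id2, a repressor of differentiation, fell (log2 fold change -0.43). Myc, Ccnd1 and Id2 were chosen after their values were seen.

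Secreted and surface inhibitors other than the members rose in 7 of 16 tested and fell in 1, with a median log2 fold change of 0.23. Without Dkk1 and Dkk4, which passed the filter through the DISC1-Δ3 group alone, 5 of 14 rose. Frzb, a secreted Frizzled-related protein, rose from 1.09 ± 0.183 to 9.86 ± 0.200 RPKM (SD, n = 3, adjusted p = 1.33e-12 by edgeR), and Sostdc1, an LRP-binding antagonist, from 2.66 ± 0.283 to 16.3 ± 1.94 RPKM (SD, n = 3, adjusted p = 3.06e-11 by edgeR). Dkk4 and Dkk1, which also bind LRP coreceptors, were rare in both groups. Dkk4 went from 2 reads over the wildtype group to 97 over the DISC1-Δ3 group (45.8-fold, exact binomial 95% interval 12.3 to 384), and Dkk1 from 2 to 61 reads (28.8-fold, interval 7.64 to 243). Their DISC1-Δ3 levels of 1.78 ± 0.263 and 0.63 ± 0.0586 RPKM (SD, n = 3) were far below the 200 ± 2.33 RPKM (SD, n = 3) of Notum.

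Wnt ligands, the substrates of Notum and the binding partners of Wif1, rose in 5 of 10 tested and fell in none, with a median log2 fold change of 0.47. Without Wnt6, Wnt10a and Wnt16, which passed the filter through the DISC1-Δ3 libraries and are given without a p, 2 of 7 rose. Of the wildtype libraries of these genes only replicate 1 reached 0.5 RPKM, for Wnt6 (0.53 RPKM). Wnt6 went from 0.42 ± 0.149 to 27.2 ± 2.08 RPKM (SD, n = 3), from 37 reads over the wildtype group and 2433 over the DISC1-Δ3 group. Wnt10a went from 0.12 ± 0.0458 to 7.60 ± 1.0 RPKM (SD, n = 3), from 10 and 644 reads. Wnt16 went from 2 reads over the wildtype group to 571 over the DISC1-Δ3 group (270-fold, exact binomial 95% interval 74.3 to 2232). Wnt5a, a mostly noncanonical ligand, rose from 2.46 ± 0.0819 to 6.64 ± 0.278 RPKM (SD, n = 3, adjusted p = 1.71e-09 by edgeR). All listed ligands summed to 44.4 to 51.3 RPKM in wildtype and to 93.7 to 101 RPKM in DISC1-Δ3 libraries. Wif1 and Notum together had 5.90 to 6.18 RPKM and 246 to 251 RPKM in the same libraries. Their RNA thus went from 0.121 to 0.133 of the summed ligand RNA per library in wildtype to 2.48 to 2.64 of it in DISC1-Δ3 libraries.

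The lists of genes that act with the members inside or around the cell had smaller median fold changes than the members. Klhl12, Gpc4, Gpc3 and Sp9 among them still exceeded the members Nkd2 and Dact3. Dishevelled genes and their regulators rose in 6 of 17 and fell in 1 (median log2 fold change 0.09), led by Klhl12, an adaptor for Dishevelled ubiquitination (0.67), Ccdc88c (0.37), Prickle2, a planar polarity gene (0.36), and Dvl3, a Dishevelled itself (0.26). Genes that lipidate and release Wnt, with the glypicans that hold it at the surface, rose in 3 of 12 and fell in 4 (median log2 fold change -0.08). Of these, the glypicans Gpc4 and Gpc3 rose (0.83 and 0.60 on the log2 scale), and Gpc5 and the desaturase Scd1 fell (-0.38 and -0.37). Of the other Sp factors, 1 of 7 rose and 3 fell, with a median log2 fold change of -0.16. Sp9, a factor of interneuron development, rose (0.57, adjusted p = 1.97e-06 by edgeR), and Sp1 fell (-0.42, adjusted p = 0.000816 by edgeR). Sp3 (-0.27, adjusted p = 0.0487) and Sp2 (-0.20, adjusted p = 0.0305), also by edgeR, were close to the threshold, and the count of this family went from 4 to 2 when any 1 of the 3 wildtype libraries was left out. The shares of these lists that were called were 41.2% for Dishevelled regulators, 58.3% for lipidation and glypican genes and 57.1% for Sp factors. For the earlier lists they were 68.4% for Wnt target genes, 50% for secreted inhibitors and 50% for Wnt ligands. The earlier shares include the genes that passed the filter through the DISC1-Δ3 libraries.

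**Figure D3:**
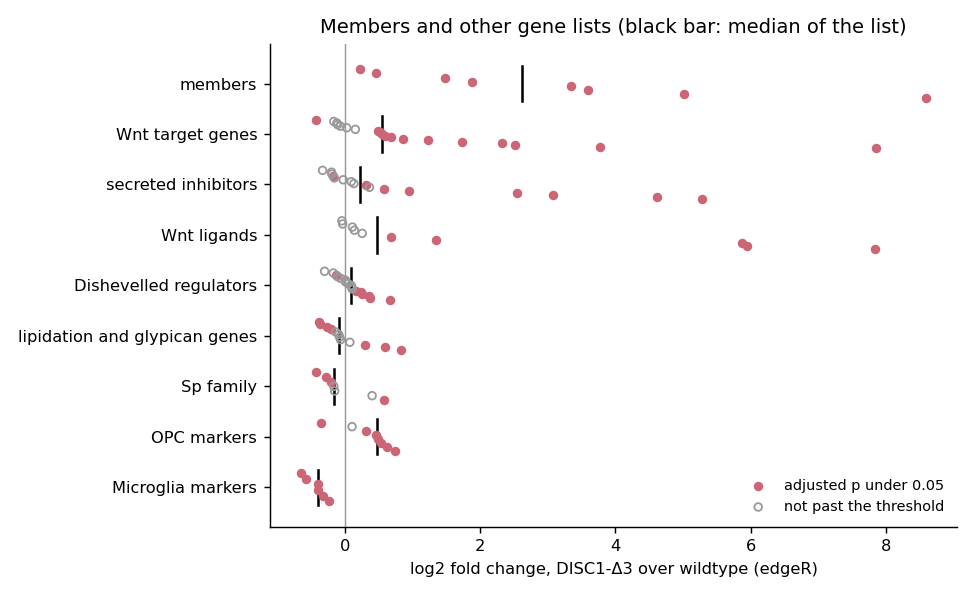
Log2 fold change (DISC1-Δ3 over wildtype, edgeR) of each tested gene in the members and in other lists, filled in red where the adjusted p was under 0.05, with the median of the list as a black bar. The medians are 2.62 for the members, 0.54 for Wnt target genes, 0.23 for secreted inhibitors and 0.47 for Wnt ligands, and the points of Dishevelled regulators, lipidation and glypican genes and Sp factors lie within 1 of zero. Values of Cdx1, Dkk1, Dkk4 and Wnt16 depend on the prior count of the fit.

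Genes next to the members on the chromosome were examined to see whether a difference extended beyond the member. For each member, the protein-coding genes of the table with the next lower and the next higher start coordinate in RefSeq were taken. There were 16 in all, of which 14 could be tested. Of these, 4 were called and 10 were not, beside 39.9% of all tested genes. The genes beside Wif1, Lemd3 (54.6 kb away, log2 fold change -0.24, adjusted p = 0.0705 by edgeR) and Tbc1d30 (163 kb away, log2 fold change 0.30, adjusted p = 0.188 by edgeR), were not called. Next to Notum, Aspscr1 at 11.8 kb rose slightly, with 36.5 ± 1.65 against 44.8 ± 2.16 RPKM (SD, n = 3, log2 fold change 0.21, adjusted p = 0.0124 by edgeR). On either side of Nkd1 the neighbours moved in opposite directions. Brd7, a bromodomain gene 159 kb away, rose from 29.1 ± 0.962 to 49.6 ± 2.13 RPKM (SD, n = 3, adjusted p = 9.60e-09 by edgeR), whereas Snx20 at 31.7 kb fell from 17.2 ± 1.21 to 11.2 ± 0.448 RPKM (SD, n = 3, adjusted p = 6.77e-06 by edgeR). Slc12a7, a potassium chloride cotransporter 1.78 kb from Nkd2, fell (log2 fold change -0.36, adjusted p = 0.000493 by edgeR) while Nkd2 was higher. Dact1 overlaps 2700049A03Rik in RefSeq, and that gene had 1.61 ± 0.0153 against 1.41 ± 0.120 RPKM (SD, n = 3) and was not called. All 14 tested neighbours stayed between -0.71 and 0.69 on the log2 scale.

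**Figure D4:**
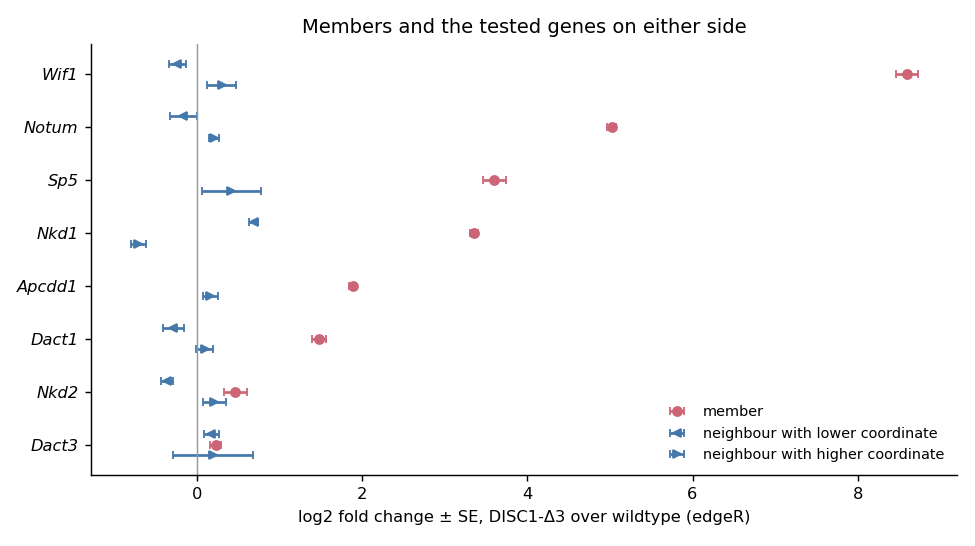
Log2 fold change with its SE (DISC1-Δ3 over wildtype, edgeR) of each member (red) and of the tested genes on either side (blue triangles pointing to the side). Neighbours lie between -0.71 and 0.69, and of the members only Nkd2 (0.47) and Dact3 (0.22) lie within that range.

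The genes whose profile was most like that of Wif1 and Notum over the 6 libraries were sought by the Euclidean distance between centred log2(RPKM + 1) values, as a description. For Wif1 these were Prss56, a serine protease (distance 0.430), Esyt3, an extended synaptotagmin (0.595), and Aldh1a1, which makes retinoic acid (1.01). For Notum they were Esyt3 (0.244), Aldh1a1 (0.314) and Wnt6 (0.691). Prss56 had 2.60 to 3.24 RPKM in wildtype and 192 to 215 RPKM in DISC1-Δ3 libraries. Aldh1a1 had 8.37 to 9.27 RPKM against 236 to 251 RPKM. Esyt3 had 0.17 to 0.29 RPKM against 36.0 to 40.2 RPKM. With a pair of groups this distance mostly measures how alike the differences between genotypes are on this scale. The pseudocount of 1 shortens the difference of genes with a low wildtype level. Wif1 differed by 5.45 on this scale beside 8.60 in the edgeR fit, and Prss56 by 5.74 beside 6.08. Genes alike by this distance can thus differ in fold change.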

How the data were processed

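RNA was sequenced as single-end reads of 50 bases. The submitters' processing notes name Bowtie2 2.2.5 and mm10, the paper names DESeq2, and the counting tool is not given in the sources used here. The authors deposited, per gene and library, an estimated count, in which reads shared by genes are divided (90.2% of values above 0 were whole, and all members' were), and an RPKM to 2 decimals. Another 4 columns of group means were not used. Counts were rounded and compared with edgeR 4.0.16 in R 4.3.3 (quasi-likelihood test, TMM scaling, genotype alone, two-sided, Benjamini-Hochberg adjustment over all 13792 genes with at least 0.5 RPKM in at least 3 libraries, threshold 0.05). Each SE printed or drawn with a log2 fold change is that value divided by the square root of its F statistic. Such an SE can be too small for large differences. The fit was tested on simulated data. Members and lists were chosen with earlier results of these data known. Named were all members, Disc1, up to 4 called genes per list with the largest log2 fold change in size, called neighbours, and the 3 genes most like Wif1 and like Notum, and others are said to be chosen later. The genes Lemd3, Tbc1d30 and 2700049A03Rik were also named after their values were seen. Gene IDs were matched to RefSeq (GRCm38.p6) for 18085 of 18211 genes, and coordinates are from GENCODE on mm10. Alternatives were median-of-ratios and RPKM-sum scaling, no filter or a filter at 1 RPKM, DESeq2 1.42.0, limma 3.58.1 on log2(RPKM + 1) or log2(RPKM + 0.1), a replicate block, a minimum log2 fold change of 1, and leaving out each library.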

Additional observations from a re-analysis of the deposited data

How the results depend on the processing

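All 8 members stayed higher in DISC1-Δ3 under every scaling, filter, tool and left-out library. The exception was the level relative to OPC markers, where Dact3 turned to -0.0258 on the log2 scale. Nkd2 was not called by DESeq2 or without wildtype replicate 2 or 3, and Dact3 was not called without wildtype replicate 2 or 3 or without DISC1-Δ3 replicate 2, so that 6 to 8 members were called with a library left out. The median log2 fold change of the members was 2.62, and 2.58 to 2.63 with a library left out. It moved to 2.70 under RPKM-sum scaling, to 2.44 and 2.69 with limma at pseudocounts of 1 and 0.1, and to 2.37 relative to OPC markers. With limma at a pseudocount of 1, Wif1 had 5.45, as a pseudocount above its wildtype level shortens the scale. Over all genes 5498 were called, 51.1% of them higher. RPKM-sum scaling called 5849 with 70.1% higher and limma 69.2% higher at either pseudocount, so that small differences such as those of Sp2 and Sp3 depend on scaling. A log2 fold change of at least 1 left 527 genes in all, 6 Wnt targets, 4 secreted inhibitors, and 0 Dishevelled regulators, lipidation and glypican genes, Sp factors or neighbours. At an adjusted p under 0.05 without that minimum, edgeR called 7, 7, 4 and 4 of these. Sp factors called numbered 2 under RPKM-sum scaling and with limma at either pseudocount, and 2 to 5 with a library left out. The labels do not say whether replicate numbers pair the libraries. Deviations of same-numbered libraries correlated at 0.117, 0.0305 and -0.03 over genes, and those of other pairs at -0.100 to 0.0624. With 3 libraries per group these values cannot decide whether the numbers pair them. With the replicate number as a block, 5429 genes and all 8 members were called, and the median of the members was 2.62.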
